A study of Homo sapiens with 8 samples.

Results

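AP-1 is a transcription factor assembled from pairs of basic leucine zipper proteins, and the genes described here encode its FOS subunits (FOS, FOSB, FOSL1 and FOSL2), its JUN subunits (JUN, JUNB and JUND), the related zipper proteins ATF3 and BATF, and EGR1, a zinc finger factor that is induced together with FOS. They were taken by gene symbol from a table of raw read counts, in which all 10 had a single row among 23562 rows. Of the 10 genes, 9 had enough counts to be tested among 13838 genes in 8 libraries, and the same 9 among 14047 genes in the 7 libraries left without sgCEBPD 3. FOSB stayed below the filter on low counts in both.

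The libraries hold poly(A) RNA of OCI-AML5, an established cell line derived from a person with acute myeloid leukemia and grown in suspension. Cells were transduced with a lentiviral vector, lentiCRISPRv2, that carries Cas9 and a guide RNA. The 4 sgCEBPD libraries carried CEBPD-specific guides and are labelled sgCEBPD 1 to 4. The 4 sgControl libraries carried non-specific guides and are labelled sgControl 1 to 4. Each number was read here as a different guide, which the sample titles do not state. All groups thus share the cell line, the vector and Cas9. No label gives the time after transduction, whether cells were selected or cloned, or whether a transduction was repeated, so a p-value here sets a difference only against the spread of these libraries. CEBPD encodes C/EBP delta, itself a basic leucine zipper factor, and the comparison asks how transcripts differ when guides against it replace control guides.

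FOS, EGR1, JUN, JUNB and ATF3 belong to the immediate early and stress response genes, whose transcription starts within minutes of a signal and needs no new protein. Growth factors and cytokines reach FOS and EGR1 through the RAS and ERK cascade, which activates the ternary complex factors that sit with SRF on CArG boxes. JUND and FOSL2 are more steadily transcribed, and FOS proteins bind DNA only as a pair with a JUN protein. In myeloid cells AP-1 and EGR1 are known for their part in differentiation towards monocytes and macrophages.

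The promoters of JUND, FOS, EGR1 and FOSL2 are shown because JUND was the only gene of the 10 that passed the test, FOS and EGR1 had the largest excess in the library sgCEBPD 3, and FOSL2 was the most abundant FOS gene. Each line holds the 250 bases before the RefSeq start on GRCh38.p14, written 5′ to 3′ on the strand of the gene. The gene positions given below come from GENCODE, and the starts of these annotations differ for some genes. GENCODE starts FOSL2 at base 28392448, so the FOSL2 window lies wholly inside the gene by that annotation. The FOS window runs past the GENCODE start at base 75278774. Capitals mark, on either strand, the core of the cyclic AMP response element (CRE) with its flanks (TGACGTNN, which includes the full CRE, TGACGTCA), the CArG box bound by SRF, TATAAA and CCAAT.
JUND (chr19:18281623-18281872, minus strand): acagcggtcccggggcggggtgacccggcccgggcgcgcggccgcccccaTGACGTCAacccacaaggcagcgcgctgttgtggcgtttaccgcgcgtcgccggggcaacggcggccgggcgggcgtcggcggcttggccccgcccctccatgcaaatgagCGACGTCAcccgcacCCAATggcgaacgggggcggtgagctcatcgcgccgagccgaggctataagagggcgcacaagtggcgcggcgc
FOS (chr14:75278578-75278827, plus strand): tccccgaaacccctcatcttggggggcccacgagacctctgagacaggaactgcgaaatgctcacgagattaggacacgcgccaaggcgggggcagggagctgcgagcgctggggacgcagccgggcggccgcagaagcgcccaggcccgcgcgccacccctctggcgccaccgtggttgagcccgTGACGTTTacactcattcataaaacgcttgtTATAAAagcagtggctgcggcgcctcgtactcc
EGR1 (chr5:138465229-138465478, plus strand): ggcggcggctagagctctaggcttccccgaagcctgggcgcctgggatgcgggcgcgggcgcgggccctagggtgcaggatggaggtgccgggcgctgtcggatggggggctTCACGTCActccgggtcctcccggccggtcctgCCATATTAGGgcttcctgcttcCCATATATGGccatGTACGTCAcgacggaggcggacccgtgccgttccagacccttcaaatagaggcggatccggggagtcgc
FOSL2 (chr2:28392608-28392857, plus strand): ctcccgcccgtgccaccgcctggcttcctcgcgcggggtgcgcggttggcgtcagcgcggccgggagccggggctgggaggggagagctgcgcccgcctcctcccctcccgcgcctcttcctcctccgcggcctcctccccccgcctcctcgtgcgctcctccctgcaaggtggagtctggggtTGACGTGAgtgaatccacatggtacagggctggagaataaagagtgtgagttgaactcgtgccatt

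The sequences differ in the elements they hold. JUND has a full CRE at positions -200 to -193 relative to its start, a CRE core on the opposite strand and a CCAAT box, and no TATAAA. FOS has a CRE core at positions -64 to -57 and a TATAAA. EGR1 has a pair of CArG boxes and a pair of CRE cores. FOSL2 has a single CRE core, which lies upstream of the RefSeq start but inside the gene by GENCODE. Among 35116 RefSeq windows of the same length, TGACGTCA was in 1.65%, TGACGTNN in 6.99%, a CArG box in 1.16%, TATAAA in 10.7% and CCAAT in 32.0%. Windows were found for 9 of the 10 genes, all but FOSL1. TGACGTNN was in the windows of 5 of those 9 genes (JUND, FOS, FOSB, FOSL2 and EGR1), and the CArG box in that of EGR1. The AP-1 site TGANTCA, held by 6.57% of windows, was in none of them, nor were the EGR1 sites GCGTGGGCG (0.72% of windows) and GCGGGGGCG (4.72%). That AP-1 pattern does not match the longer form TGACATCA, which stands in the windows of JUN and ATF3 and was not searched for. The C/EBP pattern TTNNGNAA, held by 33.2% of windows, was in those of FOSB and ATF3. The JUN window and the ATF3 window that starts at base 212614768 also lie inside their genes by GENCODE. These are matches of letters in short windows and not measured binding sites, and elements further upstream would not be seen.

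Library totals lay between 10556847 and 11521209 counts in sgCEBPD and between 10217751 and 11298795 in sgControl. Transcript of the targeted gene, CEBPD, stood at 107, 209, 195 and 164 CPM (read counts scaled to the library by TMM) in sgCEBPD 1 to 4, against 216, 204, 205 and 202 CPM in sgControl 1 to 4. It was thus lower than in every control in sgCEBPD 1, 3 and 4 and within the control range in sgCEBPD 2, and an edit that leaves the transcript in place would not be seen in this value. The library sgCEBPD 3 stood apart from all others: 69.7% of tested genes lay outside the range of the other 7 libraries there, against 17.6% to 19.9% in each other library. Results are therefore given with 8 libraries and without sgCEBPD 3. The myeloid marker CD33 was present in all libraries, at 99.05 to 107 CPM in sgCEBPD, against 122 to 143 CPM in sgControl, and it fell without sgCEBPD 3 (adjusted p = 0.0199, edgeR).

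JUND, the JUN subunit known for steady expression, was higher in sgCEBPD. It lies on chromosome 19 (bases 18279760 to 18281622, minus strand, a single exon; GRCh38, GENCODE 29). It had 274, 322, 477 and 264 CPM in sgCEBPD 1 to 4, against 196, 223, 204 and 212 CPM in sgControl 1 to 4. Every sgCEBPD library lay above every sgControl library, and sgCEBPD 3 was the highest. Without sgCEBPD 3, JUND rose 1.37-fold (log2 fold change 0.46, SE 0.07, adjusted p = 0.0149, edgeR's quasi-likelihood test with Benjamini-Hochberg adjustment over all genes). It was the only one of the 9 tested genes that passed this threshold of 0.05, beside 2.01% of all genes tested. With all 8 libraries the difference of JUND was 0.68 on the log2 scale (SE 0.18; adjusted p = 0.270), and none of the 9 passed in edgeR, beside 0.0795% of all genes. At an unadjusted p under 0.05 there were 4 of the 9 (44.4%) with 8 libraries, beside 11.4% of all genes, and 3 of the 9 (33.3%) without sgCEBPD 3, beside 15.5%. DESeq2 called JUND with 8 libraries (adjusted p = 0.0248), and without sgControl 1 the call of the 7 libraries was lost in edgeR (adjusted p = 0.0560). Neutrophil markers also differed between the groups, and their part in the JUND result was not tested. Of 8 tested neutrophil markers, 3 fell and 1 rose without sgCEBPD 3 in edgeR, beside 1.31% and 0.705% of all genes. With 8 libraries CTSG alone passed, beside 0.0795% of all genes. CTSG, the granule protease cathepsin G, had 8.05, 5.30, 4.72 and 7.43 CPM in sgCEBPD 1 to 4, against 32.6, 25.2, 26.1 and 41.4 CPM in sgControl 1 to 4 (adjusted p = 0.0183 with 8 libraries). Without sgCEBPD 3, CSF3R (the G-CSF receptor) and CXCR2 (a chemokine receptor) fell, with adjusted p of 0.0117 and 0.0156, and S100A8 (a calcium-binding protein) rose, with an adjusted p of 0.0165. The list summed to 252 to 308 CPM in sgCEBPD 1, 2 and 4, against 391 to 436 CPM in sgControl. In RNA from a whole culture, a change in the share of cells of a type and a change in RNA per cell cannot be told apart.

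JUNB and JUN, the other JUN subunits, did not pass the test. JUNB, which has a single exon on chromosome 19 (bases 12791496 to 12793315), had 104, 103, 213 and 110 CPM in sgCEBPD 1 to 4, against 96.0, 115, 96.6 and 125 CPM in sgControl 1 to 4. Only sgCEBPD 3 lay outside the control range. JUNB differed by 0.29 (log2, SE 0.25) with 8 libraries and by -0.04 (SE 0.09) without sgCEBPD 3, with adjusted p of 0.642 and 0.906 in edgeR. JUN, the prototype of the family, also with a single exon on chromosome 1 (bases 58780788 to 58784327), had 25.0, 40.3, 55.4 and 22.1 CPM in sgCEBPD 1 to 4, against 42.0, 30.0, 34.2 and 38.6 CPM in sgControl 1 to 4. Here the sgCEBPD libraries scattered to both sides of the controls, with sgCEBPD 1 and 4 below all of them and sgCEBPD 3 above all of them. JUN had a log2 fold change of -0.02 with 8 libraries (adjusted p = 0.979) and -0.32 without sgCEBPD 3 (adjusted p = 0.584). JUNB lies within HOOK2, which runs on the opposite strand, and since the strand setting of the counting is not given, reads of the overlap cannot be told apart.

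**Figure D1:**
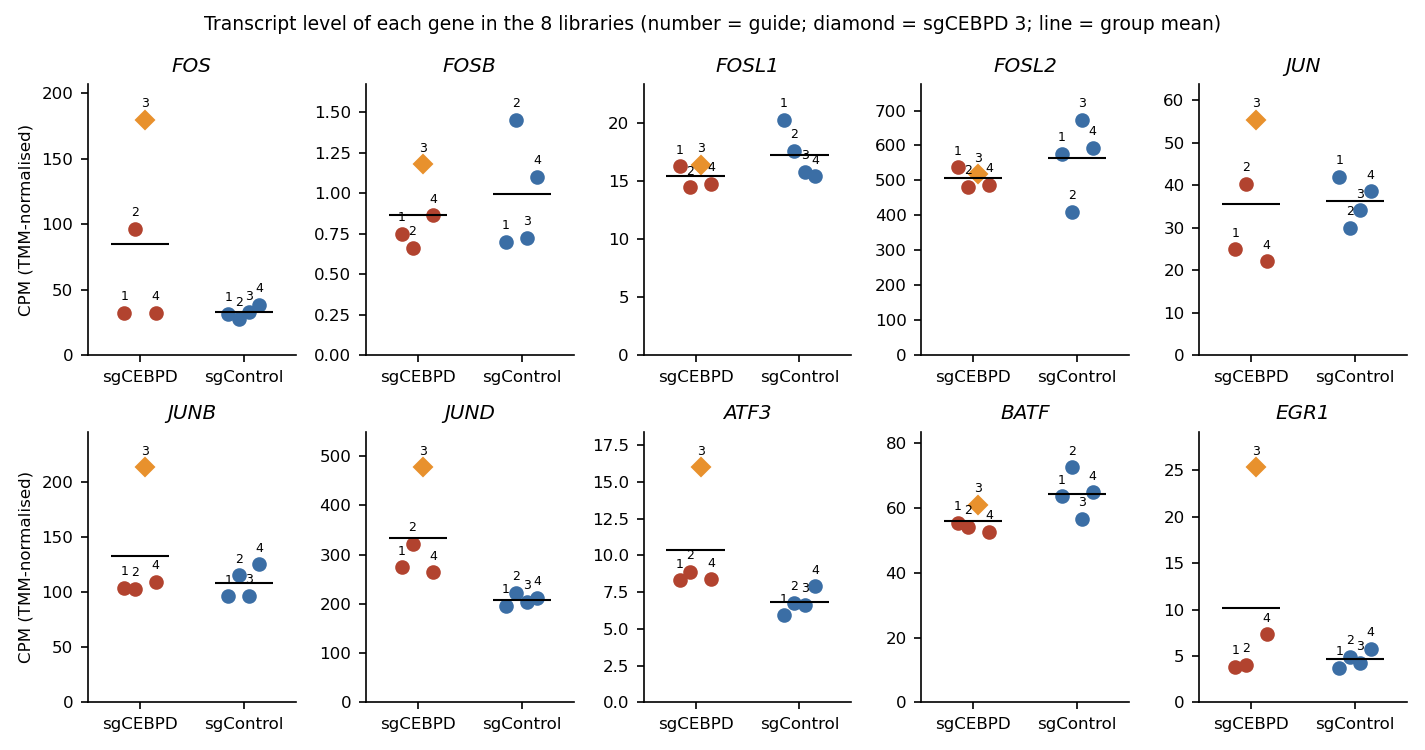
Transcript levels of the 10 genes in CPM (TMM-normalised, linear axes from 0), one panel per gene. The sgCEBPD libraries are on the left and the sgControl libraries on the right. Points carry the number of the library label, read here as a guide. The diamond is sgCEBPD 3 and the line is the group mean. JUND and ATF3 show no overlap between the groups, and FOS is high in sgCEBPD 2 (96.7 CPM) and sgCEBPD 3 (179.9 CPM) but not in sgCEBPD 1 and 4.

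FOS, the founding FOS subunit and a classic immediate early gene, was high in 2 of the 4 sgCEBPD libraries. It lies on chromosome 14 (bases 75278774 to 75282230, plus strand). It had 32.3, 96.7, 179.9 and 32.3 CPM in sgCEBPD 1 to 4, against 31.5, 28.01, 32.7 and 38.6 CPM in sgControl 1 to 4. The libraries sgCEBPD 1 and 4 lay within the control range, and sgCEBPD 2 and 3 above it, at 296% and 550.0% of the control mean. The group means were 85.3 ± 70.0 CPM in sgCEBPD and 32.7 ± 4.43 CPM in sgControl (SD, n = 4 each). FOS did not pass the test with 8 libraries (log2 fold change 1.38, SE 0.54, adjusted p = 0.409) or without sgCEBPD 3 (0.71, SE 0.46, adjusted p = 0.548, both edgeR). When sgCEBPD 2 was left out as well, the log2 fold change was -0.02.

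The other FOS genes showed no such pattern. FOSL2, also called FRA2, on chromosome 2 (bases 28392448 to 28417312), had 537, 482, 518 and 488 CPM in sgCEBPD 1 to 4, against 577, 410, 674 and 593 CPM in sgControl 1 to 4. The 4 sgCEBPD values lay within the wider control range, and the log2 fold change was -0.15 (SE 0.14, adjusted p = 0.653, edgeR, 8 libraries). FOSL1, or FRA1, on chromosome 11 (bases 65892049 to 65900573), ranged over 14.5 to 16.4 CPM in sgCEBPD and 15.4 to 20.3 CPM in sgControl, with a log2 fold change of -0.16 (adjusted p = 0.591). FOSB, on chromosome 19 (bases 45467995 to 45475179), had 7 to 12 counts in each sgCEBPD library and 8 to 15 counts in each sgControl library. A difference was not detectable at this depth. FOSB overlaps ERCC1 and FOSL2 overlaps FLJ31356 on the opposite strand, so their reads share the doubt on strand given for JUNB.

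ATF3, a stress-induced zipper protein that pairs with JUN proteins, was low but higher in every sgCEBPD library. It lies on chromosome 1 (bases 212565334 to 212620777). It had 8.33, 8.89, 16.0 and 8.38 CPM in sgCEBPD 1 to 4, against 5.95, 6.78, 6.63 and 7.89 CPM in sgControl 1 to 4. The groups did not overlap, but the lowest sgCEBPD value and the highest sgControl value were close. The log2 fold change was 0.61 with 8 libraries (SE 0.24, adjusted p = 0.409) and 0.32 without sgCEBPD 3 (SE 0.14, adjusted p = 0.307), so ATF3 did not pass the test in edgeR.

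BATF, which pairs with JUN proteins and works with IRF factors in lymphoid and dendritic cells, lay lower in the sgCEBPD libraries other than sgCEBPD 3. It is on chromosome 14 (bases 75522425 to 75547015). It had 55.5, 54.1, 61.0 and 52.7 CPM in sgCEBPD 1 to 4, against 63.6, 72.6, 56.7 and 64.8 CPM in sgControl 1 to 4. Without sgCEBPD 3 the groups did not overlap, yet BATF did not pass the test (log2 fold change -0.25, SE 0.08, adjusted p = 0.155, edgeR). With 8 libraries the difference was -0.21 (log2, SE 0.09, adjusted p = 0.437).

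EGR1, a zinc finger factor known to drive monocyte and macrophage genes, was high in sgCEBPD 3 alone. It lies on chromosome 5 (bases 138465490 to 138469315, plus strand). It had 3.84, 4.07, 25.3 and 7.34 CPM in sgCEBPD 1 to 4, against 3.76, 4.94, 4.27 and 5.78 CPM in sgControl 1 to 4. The libraries sgCEBPD 1 and 2 lay within the control range, and sgCEBPD 4 somewhat above it. The log2 fold change was 1.11 with 8 libraries (SE 0.60, adjusted p = 0.5003) and 0.12 without sgCEBPD 3 (SE 0.26, adjusted p = 0.880, both edgeR), and it was -0.25 when sgCEBPD 4 was left out too.

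As a list, the groups did not overlap for 2 of the 9 tested genes with 8 libraries (JUND and ATF3, both higher, 22.2%), beside 9.59% of all genes and 4.96% that were higher, and for 3 of the 9 without sgCEBPD 3 (JUND and ATF3 higher, BATF lower, 33.3%), beside 14.4% of all genes, of which 6.89% were higher and 7.5% lower. The median log2 fold change of the 9 was 0.29 with 8 libraries and -0.04 without sgCEBPD 3, and that of all genes was 0.00029 and 0.0011.

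**Figure D2:**
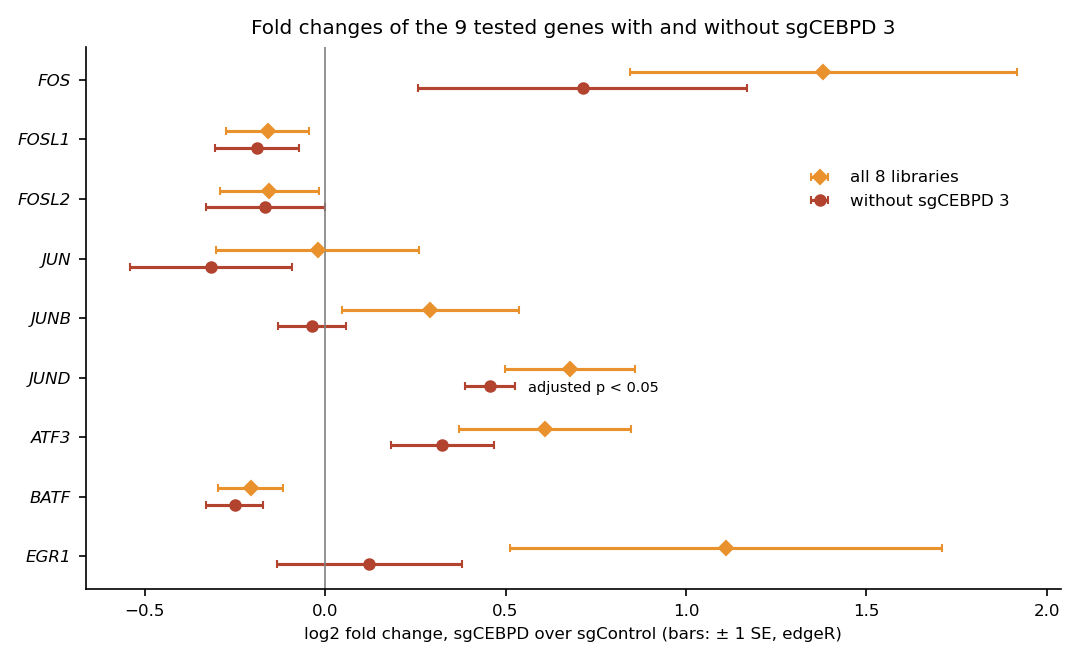
Log2 fold changes of the 9 tested genes, sgCEBPD over sgControl, with all 8 libraries (diamonds) and without sgCEBPD 3 (circles); bars are 1 SE from edgeR. Leaving out sgCEBPD 3 shortens the bar of JUND to 0.07, the only gene that then passes the adjusted threshold, and brings EGR1 to 0.12 and JUNB to -0.04.

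In sgCEBPD 3, FOS, EGR1, ATF3 and all 3 JUN genes were high together, and the other FOS genes and BATF were not. Since it is 1 library, seen to stand apart, these are values without a test. Relative to the mean of the other 7 libraries, EGR1 was 5.22-fold higher, FOS 4.31-fold, ATF3 2.12-fold, JUNB 1.99-fold, JUND 1.97-fold and JUN 1.67-fold. All 6 lay above every other library, which is 66.7% of the 9 tested genes beside 34.8% of all genes tested. At 2-fold or more there were 3 of the 9 (33.3%) beside 7.02% of all genes, with JUNB and JUND just below that mark. FOSL1, FOSL2 and BATF lay within the range of the other libraries, at log2 ratios of 0.0022, -0.05 and 0.02. The untested FOSB did too, with 1.179 CPM in sgCEBPD 3 and 0.662 to 1.45 CPM elsewhere. The median log2 ratio was 0.98 for the 9 genes and -0.01 for all genes.

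Markers of other blood cells also stood apart in sgCEBPD 3, and their part in these values was not tested. The monocyte and macrophage list summed to 1409 CPM there and to 585 to 766 CPM in the other 7 libraries. Of its 9 tested genes 8 lay above every other library, beside 34.8% of all genes. CD14, a monocyte surface receptor, had 41.0 CPM in sgCEBPD 3 and at most 2.74 CPM elsewhere, whereas CSF1R, the receptor of the macrophage growth factor, was abundant in all libraries (538 CPM in sgCEBPD 3, and 387 to 503 CPM in the others). The T cell list summed to 81.5 CPM in sgCEBPD 3 and to 0.70 to 2.33 CPM elsewhere. CD3D (52.7 CPM) and TRAC (27.8 CPM) made up nearly all of the sum in sgCEBPD 3. Only 5 of the 8 listed T cell genes had a row, and 1 was tested. The neutrophil list summed to 509 CPM in sgCEBPD 3, of which CSF3R made up 418 CPM. Its median log2 ratio there was -0.78. Of its 8 tested genes 3 lay below every other library and 3 above, beside 34.9% and 34.8% of all genes. MPO (11.8 CPM), CTSG (4.72 CPM) and S100A8 (0.0982 CPM) lay below every other library. The stem and progenitor list summed to 1065 CPM in sgCEBPD 3 and to 682 to 902 CPM in the others, although CD34 was at 7.86 CPM and KIT at 2.46 CPM there, the lowest of all libraries. The B cell list summed to 6.78 CPM in sgCEBPD 3 and 3.97 to 6.72 CPM elsewhere, the erythroid list to 15.3 CPM and 7.56 to 10.03 CPM, and the megakaryocyte list to 62.0 CPM and 22.2 to 43.1 CPM.

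Levels of different genes can be compared only per length, here as CPM per kilobase of exon. In the sgControl mean, JUND was the most abundant (112), followed by FOSL2 (78.7), BATF (65.7) and JUNB (59.4). JUN (10.2), FOS (10.1) and FOSL1 (9.16) formed a lower tier that cannot be ordered beyond the spread of the controls, and ATF3 (1.69), EGR1 (1.49) and FOSB (0.179) came last. On the same scale sgCEBPD 3 had JUND at 256, JUNB at 117, FOSL2 at 72.4, BATF at 62.3 and FOS at 55.6, so that FOS came close to BATF there.

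The makeup of the FOS family differed between libraries. On the per-length scale FOS made up 10.6%, 28.4%, 40.6% and 11.6% of the summed level of the 4 FOS genes in sgCEBPD 1 to 4, against 9.61%, 11.4%, 8.96% and 11.6% in sgControl 1 to 4. FOSL2 made up 80.0%, 64.1%, 52.9% and 79.1% in sgCEBPD 1 to 4, against 79.6%, 75.8%, 83.5% and 80.3% in sgControl 1 to 4. In sgCEBPD 2 and 3 alone the share of FOSL2 lay below the control range by more than 10 percentage points. Among the JUN genes, JUND made up 69.7%, 71.8%, 65.9% and 68.1% in sgCEBPD 1 to 4, against 62.0%, 62.5%, 63.6% and 58.9% in sgControl 1 to 4, with no overlap between the groups. The ratio of FOS to JUN was 1.41, 2.62, 3.55 and 1.60 in sgCEBPD 1 to 4, against 0.820, 1.02, 1.05 and 1.10 in sgControl 1 to 4, again with no overlap. In sgCEBPD 1 and 4, where FOS was at the control level, it was JUN that was low. How often shares or ratios of other genes separate the groups was not computed. Of all single genes tested with 8 libraries, 9.59% did not overlap. The share of JUND is not separate from its own higher level.

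**Figure D3:**
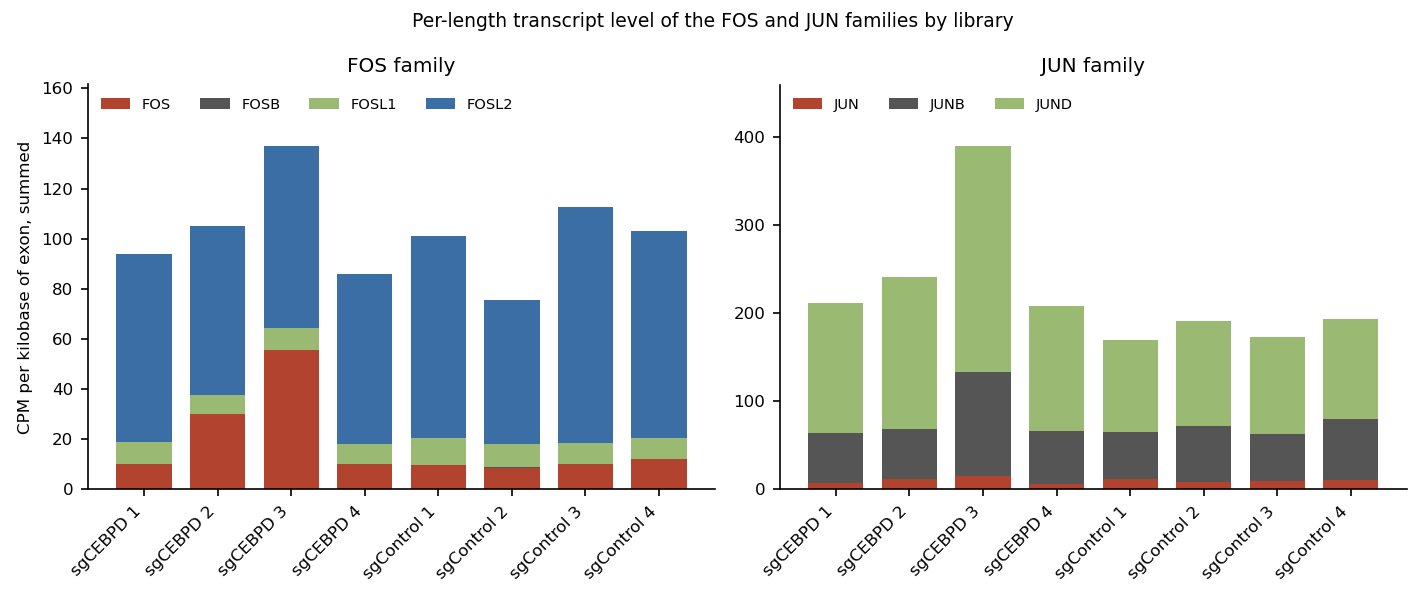
Per-length transcript level (CPM per kilobase of exon, stacked, axes from 0) of the 4 FOS genes and the 3 JUN genes in each library, sgCEBPD libraries first. FOSL2 forms most of the FOS family in all 8 libraries, and the FOS segment is visibly larger in sgCEBPD 2 (28.4% of the family) and sgCEBPD 3 (40.6%).

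The other immediate early genes were read beside these factors. Without sgCEBPD 3, 2 of 24 tested genes of that list fell and none rose in edgeR and in limma-voom. Over all genes 1.31% fell and 0.705% rose in edgeR. With 8 libraries none of 22 passed in edgeR, limma-voom or DESeq2. In edgeR 5 of the 22 had an unadjusted p under 0.05, beside 11.4% of all genes. Without sgCEBPD 3 it was 8 of the 24, beside 15.5% of all genes. DESeq2 called the same 2 without sgCEBPD 3 and also ZFP36, an mRNA decay factor, as higher. ZFP36 had 56.9, 78.8 and 54.3 CPM in sgCEBPD 1, 2 and 4, against 38.5, 44.4, 52.2 and 44.5 CPM in sgControl 1 to 4 (adjusted p = 0.167 in edgeR), and 158 CPM in sgCEBPD 3. KLF10, a zinc finger repressor induced by TGF-beta, had 13.1, 9.55 and 12.9 CPM in sgCEBPD 1, 2 and 4, against 18.3, 19.5, 19.2 and 19.2 CPM in sgControl 1 to 4 (log2 fold change -0.68, adjusted p = 0.0207). BTG1, an antiproliferative factor, had 63.6, 56.9 and 56.7 CPM in sgCEBPD 1, 2 and 4, against 79.9, 72.8, 69.6 and 74.0 CPM in sgControl 1 to 4 (log2 fold change -0.33, adjusted p = 0.0380). In sgCEBPD 3 both stood above every control, KLF10 at 20.2 CPM and BTG1 at 188 CPM. The call of KLF10 was lost when sgControl 1, 3 or 4 was left out (adjusted p up to 0.0629), and that of BTG1 when any 1 library other than sgCEBPD 1 was (adjusted p up to 0.119). PPP1R15A, the GADD34 subunit that restarts translation after stress, had the lowest p among those that did not pass, with a mean of 39.8 CPM in sgCEBPD 1, 2 and 4, against 30.7 CPM in sgControl (adjusted p = 0.0926).

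In sgCEBPD 3, 18 of the 22 genes of that list lay above every other library, beside 34.8% of all genes. At 2-fold or more there were 8, beside 7.02% of all genes, and the median log2 ratio was 0.70. PPP1R15A had 191 CPM there and 28.2 to 45.9 CPM elsewhere, and BTG2 had 175 CPM and 35.5 to 56.0 CPM. ZFP36L1, an mRNA decay factor that is not among the 22, had 17.7 CPM in sgCEBPD 3 and at most 3.03 CPM elsewhere. SGK1, a kinase, had 17.8 CPM in sgCEBPD 3 and 4.26 CPM in sgCEBPD 2, against 0.872 to 1.73 CPM in the other 6 libraries. MYC went the other way, with 471 CPM in sgCEBPD 3 and 774 to 964 CPM elsewhere.

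Genes known as AP-1 targets in myeloid cells were mostly high in sgCEBPD 3. There 11 of 13 tested genes lay above every other library, beside 34.8% of all genes, and 9 were at 2-fold or more, beside 7.02%. The median log2 ratio was 1.63 (2.32 for the monocyte and macrophage markers). The list shares ITGAX with the monocyte markers. MMP9, a secreted protease that was not tested and is not among the 13, had 138 CPM in sgCEBPD 3 and at most 9.46 CPM elsewhere. The chemokine CCL2 had 57.6 CPM and at most 3.86 CPM. SPP1, which encodes osteopontin, was the only gene of this list that passed without sgCEBPD 3. It had 11.2, 31.6 and 17.6 CPM in sgCEBPD 1, 2 and 4, against 2.97, 3.00, 2.91 and 4.86 CPM in sgControl 1 to 4 (log2 fold change 2.55, adjusted p = 0.0288, edgeR), and 162 CPM in sgCEBPD 3. The call was lost without sgControl 1, 2 or 3 (adjusted p up to 0.115), in limma-voom (adjusted p = 0.0896) and with no filter (adjusted p = 0.0621), while the log2 fold change stayed at 2.07 or more. With 8 libraries none of the 13 passed in edgeR, and DESeq2 called SPP1. In edgeR 3 of the 13 had an unadjusted p under 0.05, beside 11.4% of all genes. Without sgCEBPD 3 it was 2 of the 13, beside 15.5% of all genes.

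**Figure D4:**
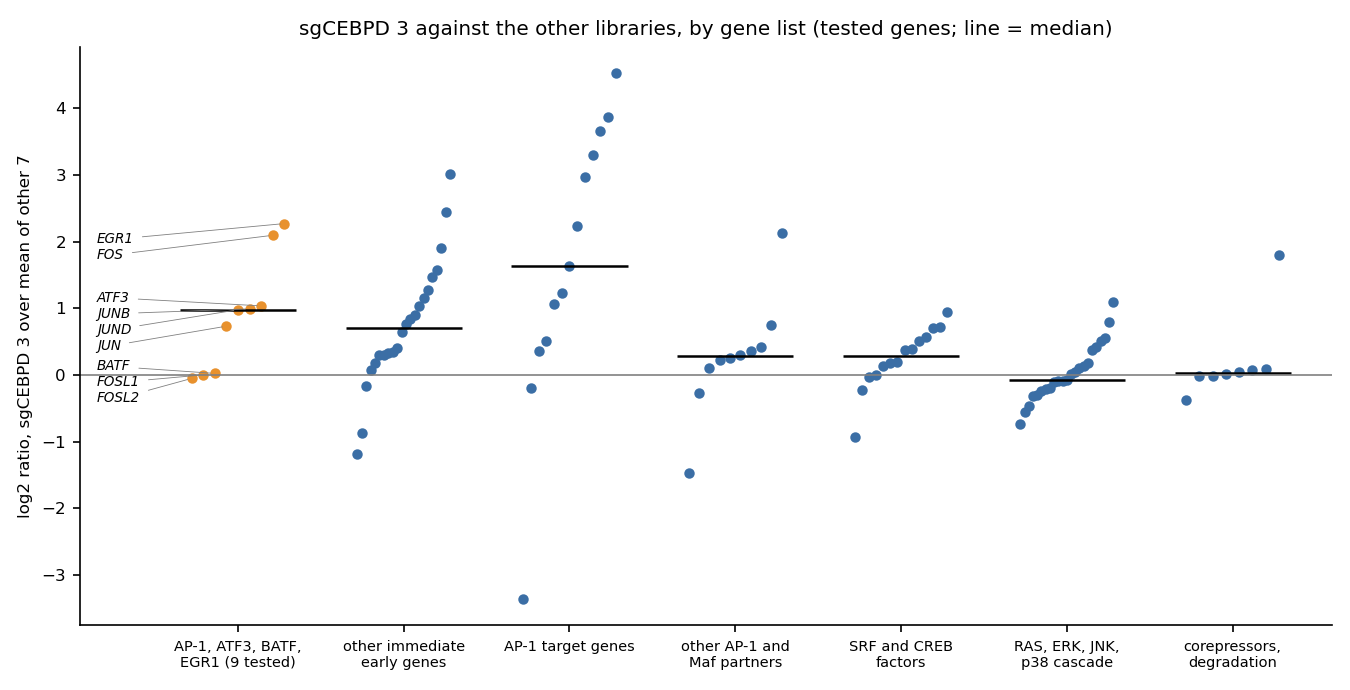
Log2 ratio of sgCEBPD 3 to the mean of the other 7 libraries for each tested gene (points), grouped by list, with the list median as a line; the 9 tested AP-1 and immediate early factors are named. Medians are 0.98 for these factors, 0.70 for the other immediate early genes, 1.63 for the AP-1 targets and -0.08 for the RAS, ERK, JNK and p38 cascade.

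Upstream of AP-1, 1 gene of the signalling lists passed. Of the 23 genes of the RAS, ERK, JNK and p38 cascade, MAPK14 (the p38 alpha kinase) fell without sgCEBPD 3, with 261, 242 and 254 CPM in sgCEBPD 1, 2 and 4, against 321, 282, 337 and 310.0 CPM in sgControl 1 to 4 (log2 fold change -0.31, adjusted p = 0.0324, edgeR). This call was lost when any library other than sgControl 2 was left out (adjusted p up to 0.110). In sgCEBPD 3, 8 of the 23 genes of the cascade lay above every other library and 9 lay below. Over all genes 34.8% lay above and 34.9% below. ERK1 (MAPK3) had 84.4 CPM in sgCEBPD 3 and 35.2 to 47.0 CPM elsewhere. With 8 libraries none of the 23 passed in edgeR, and DESeq2 called MAPK14. In edgeR 2 of the 23 had an unadjusted p under 0.05, beside 11.4% of all genes. Without sgCEBPD 3 it was 5 of the 23, beside 15.5% of all genes. None of the 14 SRF, ternary complex and CREB factors passed in edgeR, DESeq2 or limma-voom. In edgeR 3 had an unadjusted p under 0.05 with 8 libraries and 4 without sgCEBPD 3, beside 11.4% and 15.5% of all genes. CRTC3, a coactivator of CREB, had the lowest p of that list, with 55.7, 59.4 and 55.2 CPM in sgCEBPD 1, 2 and 4, against 48.8, 48.3, 43.7 and 50.3 CPM in sgControl 1 to 4 (adjusted p = 0.0946). The groups did not overlap, and sgCEBPD 3 had 84.3 CPM. SRF itself had 203 CPM in sgCEBPD 3 and 127 to 140 CPM elsewhere.

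None of the 10 other AP-1 and Maf partners passed in edgeR, DESeq2 or limma-voom. In edgeR 1 had an unadjusted p under 0.05 with 8 libraries and 2 without sgCEBPD 3, beside 11.4% and 15.5% of all genes. None of the 8 corepressors and degradation factors passed in any of the tools either, with 0 and 1 at that level. MAFG, a small Maf factor, had the lowest p of the partners, at 188 to 229 CPM in sgCEBPD 1, 2 and 4, against 231 to 250 CPM in sgControl (adjusted p = 0.154, edgeR, without sgCEBPD 3). MAF, a large Maf factor, stayed below the filter on low counts and was not tested. It had 24.1 CPM in sgCEBPD 3, 4.07 CPM in sgCEBPD 2 and at most 1.12 CPM elsewhere. BATF3, a dendritic cell factor, went the other way with 1.67 CPM in sgCEBPD 3 and 3.68 to 8.04 CPM elsewhere. NAB2, a corepressor that binds EGR1, had 52.1 CPM in sgCEBPD 3 and 10.5 to 20.5 CPM in the other 7 libraries. For both NAB2 and EGR1 sgCEBPD 3 was first and sgCEBPD 4 the next, but the controls stood in a different order. Over all genes 34.8% were highest in sgCEBPD 3. A link between NAB2 and EGR1 was not tested.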

How the data were processed

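Polyadenylated RNA of OCI-AML5 cells was sequenced in 4 sgCEBPD and 4 sgControl libraries. The authors deposited a table of raw read counts per gene, without normalisation. The submitters' processing notes name FastQC, HISAT2, DESeq2 and hg38; versions, roles, counter, strand setting and annotation are not given in the sources used here.

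Group was the only term of a robust quasi-likelihood test in edgeR 4.0.16 (R 4.3.3; filterByExpr, TMM, two-sided), with Benjamini-Hochberg adjustment over all tested genes and a threshold of 0.05. Log2 fold changes are sgCEBPD over sgControl. Ratios of sgCEBPD 3 on the log2 scale used a prior of 0.5 CPM. Functions were tested on simulated data. Positions and exon lengths came from GENCODE 29, and promoters from RefSeq. Alternatives were DESeq2 1.42.0, limma-voom 3.58.1, other scalings and filters, a stricter threshold, the label number as a block and each library left out.

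The genes, lists and comparisons were chosen with earlier results of these data known. Named are the 10 genes, CEBPD and, from each list, genes past the threshold (up to 6), otherwise up to 3 with the lowest p without sgCEBPD 3, and up to 4 with the largest ratio in sgCEBPD 3 among genes with a mean of at least 2 CPM. MYC, SRF, CD14, CSF1R, CD33, CD34, KIT, CD3D, TRAC, ZFP36 and the neutrophil markers were named after their values were seen. The values of 1 listed gene are not reported here.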

Additional observations from a re-analysis of the deposited data

Results flagged for a closer look

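A library lay far from the other 3 of its group, by the gap to its neighbour over the range of the group, in 22 of 88 groups of 4 examined. Chance flags about 1 in 20 groups, but some of these genes were named for their large ratio in sgCEBPD 3, so the number found there cannot be read against chance. Of the 22, 20 were high values of sgCEBPD 3. Among the AP-1 and immediate early factors they were JUNB at 213 CPM (the other sgCEBPD libraries 103 to 110 CPM), ATF3 at 16.0 CPM (8.33 to 8.89 CPM) and EGR1 at 25.3 CPM (3.84 to 7.34 CPM). FOS was not among them, since sgCEBPD 2 lay between sgCEBPD 3 and the others.

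Among the zipper partners sgCEBPD 3 had 31.8 CPM of ATF7 and 24.1 CPM of MAF. Of the other immediate early genes it had 188 CPM of BTG1, 191 CPM of PPP1R15A, 17.7 CPM of ZFP36L1 and 175 CPM of BTG2. Of the signalling genes it had 84.3 CPM of CRTC3, 159 CPM of NRAS, 48.0 CPM of BRAF, 84.4 CPM of MAPK3 and 535 CPM of RPS6KA1. Of the AP-1 targets it had 162 CPM of SPP1, 54.5 CPM of HMOX1, 168 CPM of ITGAX, 138 CPM of MMP9, 57.6 CPM of CCL2 and 18.2 CPM of IL1B. The other 2 were in sgControl 4, with 4.86 CPM of SPP1 (2.91 to 3.00 CPM in the other controls) and 0 CPM of MMP9 (0.175 to 0.194 CPM).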

How the results depend on the processing

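Of 935 values recomputed for 68 results, 857 were taken as unchanged. For fold changes this meant the same direction and side of the threshold, and for counts staying within 1.5 times. For log2 ratios of sgCEBPD 3 it meant a shift smaller than the SD of the other 7 libraries. The small ratios of BATF, FOSL1 and FOSL2 changed sign within that limit. With 8 libraries 11 genes were called, against 1 at an adjusted p under 0.01, 292 with DESeq2, 20 with no filter and 0 to 283 when 1 library was left out (0 without sgCEBPD 2, 283 without sgCEBPD 3, and 1 without sgControl 1, 3 or 4). Without sgCEBPD 3, 283 genes were called, against 40 at an adjusted p under 0.01, 596 with DESeq2 and 66 to 312 with another library left out. Of the AP-1 and immediate early factors, 0 were called with 8 libraries, 1 with DESeq2 and 0 to 1 with a library left out. Without sgCEBPD 3 it was 1, against 0 at an adjusted p under 0.01 and 0 to 1 with another library left out. JUND stayed between 0.37 and 0.51 (log2) in those 7 libraries under every alternative run.

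Some small differences changed sign. With 8 libraries, leaving out 1 library gave log2 fold changes of -0.32 to 0.15 for JUN, -0.0365 to 0.40 for JUNB, -0.33 to 0.47 for BTG1, -0.62 to 1.46 for ITGAX, -0.21 to 0.0451 for BRAF and -0.30 to 0.30 for BATF3. BATF3 was also at -0.00460 with library totals and -0.14 in limma-voom. Without sgCEBPD 3, leaving out another library gave -0.25 to 0.29 for EGR1, -0.0153 to 0.98 for FOS and -0.0907 to 0.0435 for JUNB. The cause was not tested. The ratios of sgCEBPD 3, recomputed under other scalings and against other sets of libraries chosen after seeing the data, kept their direction for all genes above the other libraries (FOS 1.73 to 2.44, EGR1 2.20 to 2.32 on the log2 scale).

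Pairing by the number in the library label was looked at through correlations of deviations from the group mean. Same-numbered libraries had correlations of 0.05, 0.06, -0.11 and -0.04, and other pairs lay between -0.11 and 0.12. Since sgCEBPD 3 enters the group mean, this does not settle whether the libraries were paired. The submitters' library names also carry the same run of numbers in both groups, and their meaning is not given. A replicate block on the label number left 1 gene called with 8 libraries. Without sgCEBPD 3 it called 352 genes, against 283 with no block. Under it JUND had an adjusted p of 0.407 with 8 libraries and 0.01005 without sgCEBPD 3, and BATF3 was at -0.12 with 8 libraries. Counts of 7 to 15 per library limit what can be said of FOSB.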

Other observations

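FOS was high in sgCEBPD 2 and 3 and at the control level in sgCEBPD 1 and 4. Other genes high in sgCEBPD 2 and 3 were searched for after the values were seen and are given without a test. The search did not ask for the control level in sgCEBPD 1 and 4, and other pairs of libraries were not searched. Of 12328 genes with a mean of at least 2 CPM, 33 were 2-fold or more above the highest of the other 6 libraries in both sgCEBPD 2 and sgCEBPD 3, FOS among them. TNFRSF11A, which encodes RANK, had 23.7 CPM in sgCEBPD 2 and 48.5 CPM in sgCEBPD 3, 3.84 and 2.50 CPM in sgCEBPD 1 and 4, and at most 0.678 CPM in sgControl. LMNA, which encodes the A-type lamins, had 83.8 and 243 CPM in sgCEBPD 2 and 3, 22.6 and 13.0 CPM in sgCEBPD 1 and 4, and at most 6.06 CPM in sgControl. CYBB, the catalytic subunit of the phagocyte oxidase, had 11.4 and 100.1 CPM in sgCEBPD 2 and 3, 3.84 and 2.07 CPM in sgCEBPD 1 and 4, and at most 3.86 CPM in sgControl. The fungal pattern receptor CLEC7A and the chemokine receptor CX3CR1, a marker of the monocyte list, were among the 33 as well. Unlike FOS, some of the 33 were above every control also in sgCEBPD 1 and 4. Among these were TNFRSF11A, LMNA and FGL2 (25.9 and 17.8 CPM, against at most 12.3 CPM in sgControl).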
